A study of Mus musculus with 6 samples.

Results

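The 10 genes described here are Slc5a2, Rasgef1a, Amhr2, Gzmm, Endou, Sema4a, Lman1l, Asprv1, Col20a1 and Amy1, measured in mouse embryonic fibroblasts (MEFs) exposed to hydrogen peroxide. They were chosen by name from an earlier reading of these same arrays, because each rose by a very large factor in H2O2 while being best known from a tissue other than the fibroblast. Their 13 probes are 13 of 41174 on the array, and the 10 genes are 10 of 27670 names. Of the 13 probes, 12 were well above background on all 6 arrays, so the levels of these genes in untreated cells were measured and not only bounded. The series holds 6 arrays of 1 colour (Cy3): 2 of untreated primary MEFs (0 h), 2 of MEFs after 2 h and 2 of MEFs after 4 h in 1 mM H2O2. All cells were grown in DMEM with 10% FCS, and each group came from 2 independent experiments, of which the sources used here do not say whether they were separate embryos, cultures or days. The p-values below therefore measure the spread between these arrays, which may be technical. No untreated cells were harvested at 2 h or 4 h, and no genotype, strain or passage is given. Per the file headers, replicate 1 of every group lay on 1 slide and replicate 2 on another, and each group held the same position on both slides, so position and time cannot be told apart.

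Hydrogen peroxide crosses membranes, oxidises thiols and damages DNA, and fibroblasts answer it through the antioxidant, p53 and stress kinase pathways. The genes here belong to none of these pathways in a textbook sense. Slc5a2 is the sodium-glucose cotransporter of the proximal kidney tubule, Amhr2 the type II receptor for anti-Müllerian hormone in the gonad, Gzmm a granule protease of cytotoxic lymphocytes, Asprv1 an aspartic protease of the epidermis and Amy1 the amylase of saliva. Endou is a uridylate-specific endoribonuclease, Sema4a a membrane-bound semaphorin that binds plexins, Rasgef1a an exchange factor for Ras-family GTPases, Lman1l a relative of the lectin cargo receptor Lman1, and Col20a1 a collagen of the fibril-associated kind. The labelled cell type was checked against 10 fibroblast markers (Col1a1, Col1a2, Col3a1, Vim, Thy1, Pdgfrb, Fn1, Dcn, Lum and S100a4). All 10 were well above background, with a median log2 level of 6.43 above the array's 75th percentile in untreated cells.

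Promoters of the 10 genes were read from a RefSeq-derived table on build GRCm38.p6, as the 250 bases before each annotated start. The table holds 14 such windows for 8 of the genes, and none is printed for Slc5a2 and Endou. The windows of 4 genes are printed because they run from 0 to 14 CpG and include matches to the GC box, the antioxidant response element core and the p53 decamer; the other windows and their matches are not printed. Capitals mark matches to the searched motifs, on either strand. The Rasgef1a window at chr6:118066135-118066384 (plus strand) has 14 CpG, 4 GC boxes and 1 match to the antioxidant response element core. The Amhr2 window at chr15:102445117-102445366 (plus strand) has 5 CpG and 1 GC box. The Col20a1 window at chr2:180986285-180986534 (plus strand) has 1 CpG and 1 match to the p53 decamer. The Lman1l window at chr9:57620775-57621024 (minus strand) has 0 CpG and no match.
Rasgef1a: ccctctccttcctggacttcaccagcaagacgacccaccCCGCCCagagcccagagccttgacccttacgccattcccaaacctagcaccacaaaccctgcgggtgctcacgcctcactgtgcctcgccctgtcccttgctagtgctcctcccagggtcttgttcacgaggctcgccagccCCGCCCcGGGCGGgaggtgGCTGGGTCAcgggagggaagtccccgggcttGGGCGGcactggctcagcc
Amhr2: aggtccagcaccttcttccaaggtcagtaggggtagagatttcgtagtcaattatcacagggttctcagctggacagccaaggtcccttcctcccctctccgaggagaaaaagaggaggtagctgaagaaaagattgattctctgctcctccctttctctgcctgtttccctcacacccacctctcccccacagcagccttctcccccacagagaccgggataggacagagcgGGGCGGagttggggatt
Col20a1: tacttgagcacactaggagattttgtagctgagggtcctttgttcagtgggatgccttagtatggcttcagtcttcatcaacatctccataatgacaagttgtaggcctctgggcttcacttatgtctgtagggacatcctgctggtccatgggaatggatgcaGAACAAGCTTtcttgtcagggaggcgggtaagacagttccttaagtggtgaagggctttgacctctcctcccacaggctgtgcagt
Lman1l: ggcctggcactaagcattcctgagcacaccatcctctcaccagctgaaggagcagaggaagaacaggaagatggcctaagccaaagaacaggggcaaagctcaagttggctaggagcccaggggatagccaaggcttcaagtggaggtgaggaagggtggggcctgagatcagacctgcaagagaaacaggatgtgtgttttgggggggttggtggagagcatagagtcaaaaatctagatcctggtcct

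The 14 windows shared no motif. Several windows belong to the same gene, and some of Sema4a overlap, so the window counts here are not counts of independent units. The GC box (GGGCGG) was found in 7 of the 14 windows, from 4 of the 8 genes, and in 32.7% of all 32851 windows of the table. The antioxidant response element core (TGACNNNGC) was in 2 of 14 windows, of Rasgef1a and Sema4a, against 10.2% of all windows. The p53 decamer was in 1 of 14 (7.13% of all) and the TATA box (TATAAA) in 1 of 14, of Amy1 (12.4% of all). The AP-1 site (TGANTCA), the cyclic AMP response element (TGACGTCA) and the heat shock element (GAANNTTC) were in 0 of 14, against 6.75%, 1.55% and 6.69% of all windows. Both strands were searched, no motif was required to be free of overlap with another, and a missing match says only that these letters are not in the window. The median CpG count was 3 in the members' windows, with a range from 0 to 37, and 6 in all windows. Windows with 5 CpG or fewer were 10 of 14 (71.4%) among the members and 49.7% of all.

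Signals below are background-corrected intensities of the brightest probe of each gene, and levels are log2 of that signal minus the array's 75th percentile. The changes against untreated cells chose the genes, so they are given as a description, with no test. Over the 10 genes the log2 change at 2 h had a median of 5.07 and ran from 3.82 to 6.53, where the median of all genes was 0.12. At 4 h the median was 5.11, with a range from 3.79 to 6.06, against 0.07 for all genes. By adjusted p under 0.05, 22.7% of all genes tested were higher at 2 h and 23.9% at 4 h. All 10 members were higher at both times, and nothing is read from that count. The lowest treated array lay above the highest untreated array for every probe at both times. The change within each slide ran from 3.82 to 6.67 at 2 h and from 3.52 to 6.19 at 4 h for the brightest probes. In bulk RNA, fewer cells of a type and less RNA per cell cannot be told apart.

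**Figure D1:**
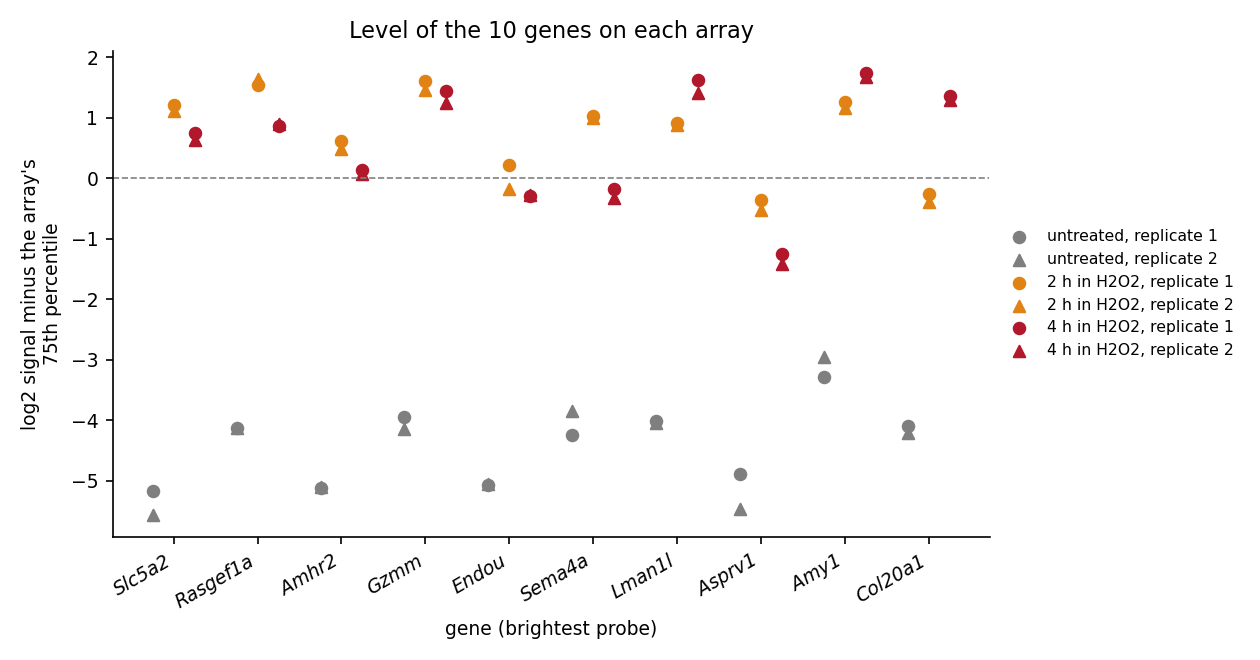
Level of the brightest probe of each of the 10 genes on each of the 6 arrays, as log2 signal minus the array's 75th percentile (dashed line at 0). Grey, orange and red stand for untreated cells, 2 h and 4 h in H2O2, and circles and triangles for replicates 1 and 2. All untreated points lie below all treated points of the same gene.

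Gzmm, Amy1, Endou and Asprv1 encode hydrolytic enzymes that are secreted, stored in granules or confined to one epithelium. Gzmm, the granzyme, had signals of 53.7 and 49.8 in untreated cells, 2041 and 1866 at 2 h and 1839 and 1790 at 4 h. The treated arrays of both times lay close together and far above the untreated ones. Amy1, which cleaves starch, had 84.6 and 114.2 in untreated cells, 1620 and 1519 at 2 h and 2252 and 2387 at 4 h. Its log2 changes were 4.33 at 2 h and 4.82 at 4 h. The other Amy1 probe read 27.5 and 38.3 in untreated cells, 801.8 and 787.8 at 2 h and 1113 and 1359 at 4 h, so both probes placed the groups in the same order. Amylase genes are close copies of each other, and signal shared with another copy cannot be told apart from Amy1's own; the probe named for the pancreatic copy, Amy2a5, was above background on 1 of the 6 arrays (4 h replicate 2, signal 31.6).

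Endou had signals of 24.5 and 26.6 in untreated cells, 785.5 and 595.5 at 2 h and 551 and 618.7 at 4 h. Its unscaled signals overlapped between the treated times, with the 2 h arrays the more spread. Asprv1, which acts in the processing of filaggrin in skin, had 28 and 20.1 in untreated cells, 524.3 and 472.1 at 2 h and 281.5 and 280.6 at 4 h. The 4 h arrays of Asprv1 lay between the untreated and the 2 h arrays.

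Amhr2 and Sema4a are membrane proteins of cell-to-cell signalling. Amhr2, the receptor, had signals of 23.9 and 25.7 in untreated cells, 1027 and 941.6 at 2 h and 737.5 and 793.5 at 4 h. Sema4a, the ligand, had 43.7 and 61.1 in untreated cells, 1368 and 1345 at 2 h and 594.2 and 600 at 4 h. Both were highest on the 2 h arrays. Slc5a2, the transporter, had 22.9 and 18.7 in untreated cells, 1564 and 1467 at 2 h and 1133 and 1171 at 4 h. Its changes, 92.3-fold at 2 h and 66.5-fold at 4 h, ranked first at both times among 12294 genes with a symbol that were above background on all arrays.

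Rasgef1a, Lman1l and Col20a1 act inside the cell, in the secretory route and in the matrix. The brightest Rasgef1a probe read 47.4 and 50.3 in untreated cells, 1966 and 2100 at 2 h and 1224 and 1408 at 4 h. The other Rasgef1a probe read 44.6 and 56.6 in untreated cells, 561 and 620.5 at 2 h and 1023 and 1089 at 4 h. The first probe was highest at 2 h and the second at 4 h. The brightest Lman1l probe read 51.1 and 53.3 in untreated cells, 1268 and 1246 at 2 h and 2065 and 1993 at 4 h. The other Lman1l probe matches a stretch of 421 genomic bases, and so spans an intron, and it was not well above background in untreated cells. It read 5.52 and 3.96 there, 35.2 and 31.6 at 2 h and 51.8 and 50.9 at 4 h, which is at least 2.46-fold higher at 2 h and at least 3.58-fold higher at 4 h than in untreated cells. For such a bound the untreated side was raised, array by array, to the dimmest detected signal of that array, unless the probe itself read higher. Col20a1 read 48.3 and 47.4 in untreated cells, 560 and 513.2 at 2 h and 1733 and 1851 at 4 h. Its 4 h arrays lay far above its 2 h arrays.

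The size of these changes depends on how the weak untreated signal is corrected for background. With normexp background correction and an offset of 50, chosen as an alternative, the changes of the 10 genes over both times had a median of 3.82 and ran from 2.31 to 4.53. Their direction held under this and every other alternative run. Genes outside the chosen set were ranked by the larger of the changes at 2 h and 4 h. Only genes with a symbol that were above background on all arrays were ranked, so genes undetected in untreated cells were left out. The highest were C730049P21 (5.12), Dok7 (4.74), Stmn4 (4.69), D6Ertd527e (4.61) and Zfp819 (4.59). The members with the smallest value by that measure were Asprv1 (4.73) and Amy1 (4.82), so the chosen names are not a strict top list.

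Whether the 10 genes held their level between the treated times was tested, with limma's moderated test on all probes and Benjamini-Hochberg adjustment. The 4 h and 2 h arrays are the treated arrays on which the genes were chosen, so this contrast is not fully independent of the choice. At 4 h against 2 h, 2 members were higher, 4 were lower and 4 did not pass, where 13.1% of all genes tested were higher and 15.7% lower. The median difference was -0.37, against -0.08 for all genes. Col20a1 was 3.17-fold higher at 4 h than at 2 h (log2 difference 1.66, SE 0.08, adjusted p = 0.00194, limma), by 1.63 on slide 1 and by 1.70 on slide 2. Lman1l was higher by 0.61 (SE 0.09, adjusted p = 0.0111, limma). Sema4a differed by -1.26 (SE 0.15, adjusted p = 0.00665, limma), with -1.20 and -1.32 within the slides. Asprv1 differed by -0.90 (SE 0.21, adjusted p = 0.0367, limma) and Amhr2 by -0.44 (SE 0.07, adjusted p = 0.0144, limma). On the level scale, none of the 10 genes had treated groups that overlapped between the times, while the unscaled signals of Endou did. That count includes Endou and Gzmm, which did not pass. The share of all genes separated in this way is not given here, so nothing is read from the count.

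The Rasgef1a probes, about 1.04 kb apart on the genome, moved in opposite directions between the treated times. The brightest fell by 0.71 on the log2 scale at 4 h against 2 h (SE 0.06, adjusted p = 0.00394, limma), and the other rose by 0.76 (SE 0.11, adjusted p = 0.0110, limma). Each direction was seen on both slides, with -0.68 and -0.73 for the brightest probe and 0.87 and 0.66 for the other. The mean of the probes differed by 0.03 (adjusted p = 0.819, limma; 0.00178 to 0.819 over all 15 alternatives), so no single direction holds for the gene. Amy1 differed by 0.49 on its brightest probe (SE 0.13, adjusted p = 0.0517, limma) and by 0.55 on the other (SE 0.14, adjusted p = 0.0473, limma). Slc5a2 differed by -0.47 (SE 0.15, adjusted p = 0.0748, limma), Endou by -0.31 (SE 0.14, adjusted p = 0.183, limma) and Gzmm by -0.18 (SE 0.12, adjusted p = 0.306, limma).

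Of the 6 called members, Col20a1 and Sema4a passed under all 15 alternatives, among them every array left out in turn. Rasgef1a passed under 14, Lman1l under 12, and Amhr2 and Asprv1 under 8 each. Without 2 h replicate 1, without 4 h replicate 1 or without 4 h replicate 2, the number of lower members was 2. Without either 2 h replicate, 1 member was higher. Fewer arrays also leave fewer degrees of freedom. With the replicate number, which is also the slide, as a block, Slc5a2 passed (adjusted p = 0.0373, limma; 0.0351 to 0.240 over its alternatives) and 5 members were lower.

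**Figure D2:**
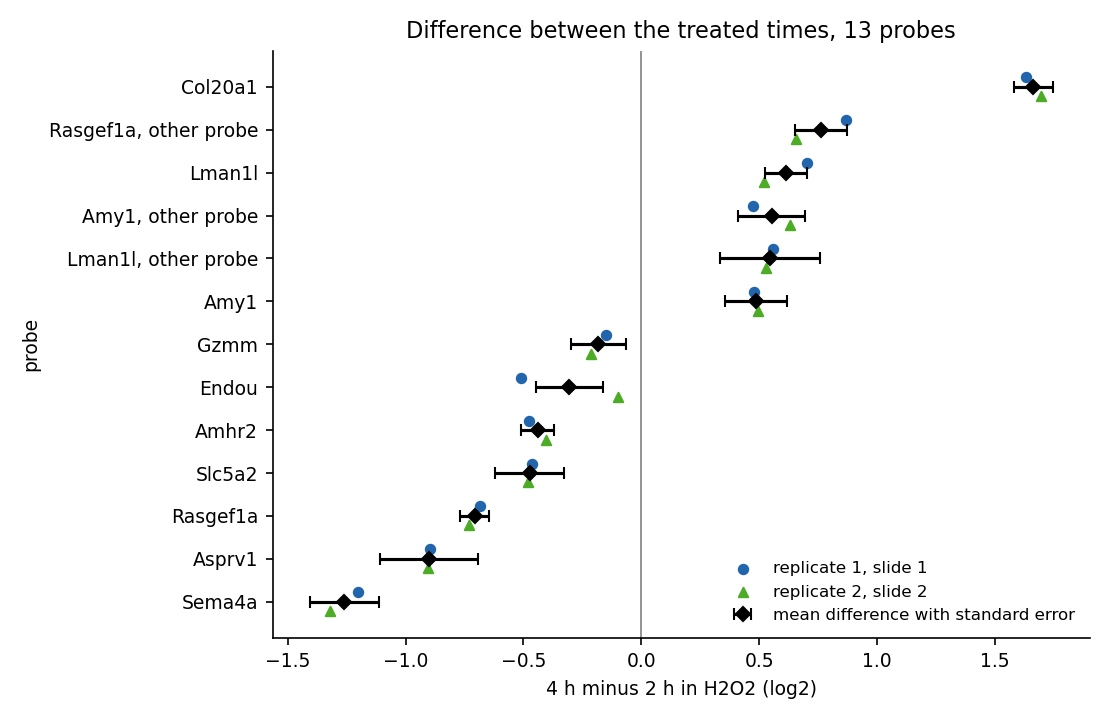
Difference between 4 h and 2 h in H2O2 for each of the 13 probes, in log2 (x axis), with probes ordered by size. Diamonds and bars give the mean difference and its standard error from limma over all 6 arrays, circles and triangles the difference within slide 1 and slide 2. Col20a1 sits at 1.66 and Sema4a at -1.26, and the Rasgef1a probes lie on opposite sides of 0.

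Genes next to the members were examined by the probe positions in the files (genome build: not given in the sources used here). Only chromosomes, strands and distances between brightest probes are therefore given. A neighbour was called bright where its signal in untreated cells averaged at or above the array's 75th percentile and its brightest probe lay within 100 kb of a member's. The 10 members had 31 bright neighbours. At 2 h, 5 of the 31 rose, 7 fell and 19 did not pass, where 20.9% of all bright genes rose and 13% fell (adjusted p under 0.05, limma). At 4 h, 6 rose, 10 fell and 15 did not pass, where 22.4% of bright genes rose and 19.2% fell. Their median change was 0.07 at 2 h and -0.08 at 4 h, beside 0.12 and 0.05 for all bright genes, and the widest changes were -2.09 and 0.79. Every member's change, of 3.79 and above, lay beyond these. These splits move with the scaling: on spike-in spots, 0 rose and 21 fell at 2 h, and 2 rose and 15 fell at 4 h. With the replicate number as a block, 8 rose and 9 fell at 2 h. Leaving out either untreated or either 2 h array left 0 or 1 neighbour higher and 3 or 4 lower at 2 h. At 4 h, leaving out either untreated or either 2 h array, or 4 h replicate 1, left 2 or 3 higher, and leaving out either untreated or either 4 h array left 4 or 5 lower.

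A bright gene lay upstream on the same strand within 100 kb for 8 of the 10 members (80%), against 32.8% of 16931 genes with a usable position. In the other orientations the members' counts were 3 for upstream on the opposite strand (26.7% of all genes), 5 for downstream on the same strand (33.6%) and 6 for downstream on the opposite strand (38.3%). With a window of 50 kb, 7 members had a same-strand upstream gene (20.5% of all genes). With neighbours of at least 4 times the 75th percentile, 3 had one (19.7% of all genes). The distance to the nearest such gene had a median of 28.0 kb over the 8 members, with a range from 9.58 to 50.9 kb, and of 37.5 kb over all genes. The position of these neighbours was not used to choose the members, but the members are 10 genes and the shares carry no test.

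Slc5a2 (chromosome 7, plus strand) lay 18.7 kb downstream of Tgfb1i1, a focal adhesion adaptor. Tgfb1i1 read 13280 and 14030 in untreated cells, 8228 and 8253 at 2 h and 6176 and 6623 at 4 h. It changed by -0.39 at 2 h (SE 0.06, adjusted p = 0.00888, limma) and by -0.83 at 4 h (SE 0.06, adjusted p = 0.00124, limma), while Slc5a2 changed by 6.53 and 6.06. The nearest bright gene on either strand, Rusf1, lay 0.723 kb away on the opposite strand and changed by -0.22 at 2 h (adjusted p = 0.212, limma) and -0.50 at 4 h (adjusted p = 0.0307, limma). Col20a1 (chromosome 2, plus strand) lay 35.7 kb downstream of Arfgap1, a GTPase-activating protein of Golgi vesicle traffic. Arfgap1 read 2439 and 2653 in untreated cells, 1051 and 928.9 at 2 h and 856.5 and 1016 at 4 h. Its brightest probe fell by 1.03 at 2 h (SE 0.09, adjusted p = 0.00179, limma) and by 1.19 at 4 h (SE 0.09, adjusted p = 0.00137, limma) on the log2 scale. Another Arfgap1 probe changed in the same direction, by -0.78 at 2 h and -0.85 at 4 h. The remaining probe changed by -0.17 at 2 h and, in the opposite direction, by 0.38 at 4 h. Lman1l (chromosome 9, minus strand) lay 21.0 kb downstream of Csk, a kinase that restrains Src. Csk changed by -0.41 at 2 h (adjusted p = 0.0115, limma) and -0.46 at 4 h (adjusted p = 0.00758, limma). Of its bright neighbours Ulk3, a kinase 10.9 kb from the Lman1l probe on the opposite strand, read 1348 and 1385 in untreated cells, 251.9 and 255.8 at 2 h and 740.7 and 809.7 at 4 h. Ulk3 changed by -2.09 at 2 h (SE 0.06, adjusted p = 0.000187, limma) and by -0.56 at 4 h (SE 0.06, adjusted p = 0.00325, limma).

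Gzmm (chromosome 10, plus strand) lay 9.58 kb downstream of Cdc34, a ubiquitin-conjugating enzyme, which changed by 0.07 at 2 h (adjusted p = 0.559, limma) and 0.46 at 4 h (adjusted p = 0.0182, limma). The rise of Cdc34 passed under 1 of 5 other scalings or background corrections, and its probes disagreed in size, the other 2 changing by 0.08 and 1.00 at 2 h and by 0.41 and 0.94 at 4 h. Endou (chromosome 15, minus strand) lay 33.8 kb downstream of Rapgef3, an exchange factor activated by cyclic AMP, which changed by 0.07 at 2 h (adjusted p = 0.684, limma) and by 0.79 at 4 h (adjusted p = 0.00813, limma). Sema4a (chromosome 3, minus strand) lay 47.1 kb downstream of Lmna, which encodes the A-type lamins and had a log2 level of 6.90 in untreated cells. Lmna changed by 0.36 at 2 h (adjusted p = 0.0416, limma), a call that passed under 0 of 5 other scalings or background corrections, with a direction that held under 3 and turned negative under quantile and spike-in scaling, and by 0.25 at 4 h (adjusted p = 0.0935, limma). Amhr2 (chromosome 15, plus strand) lay 22.2 kb downstream of Sp1, the transcription factor that binds GC boxes, which changed by 0.09 at 2 h (adjusted p = 0.359, limma) and 0.14 at 4 h (adjusted p = 0.177, limma). Amy1 (chromosome 3, minus strand) lay 50.9 kb downstream of Rnpc3, a protein of the minor spliceosome, which changed by -0.23 at 2 h (adjusted p = 0.113, limma) and -0.08 at 4 h (adjusted p = 0.539, limma). Its other probe disagreed with this, at -0.41 and 0.62. Rasgef1a and Asprv1, both on the plus strand of chromosome 6, had no bright gene upstream on their strand within 100 kb. Their nearest bright genes, Csgalnact2 at 17.2 kb and Snrnp27 at 45.9 kb, lay downstream on the opposite strand.

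**Figure D3:**
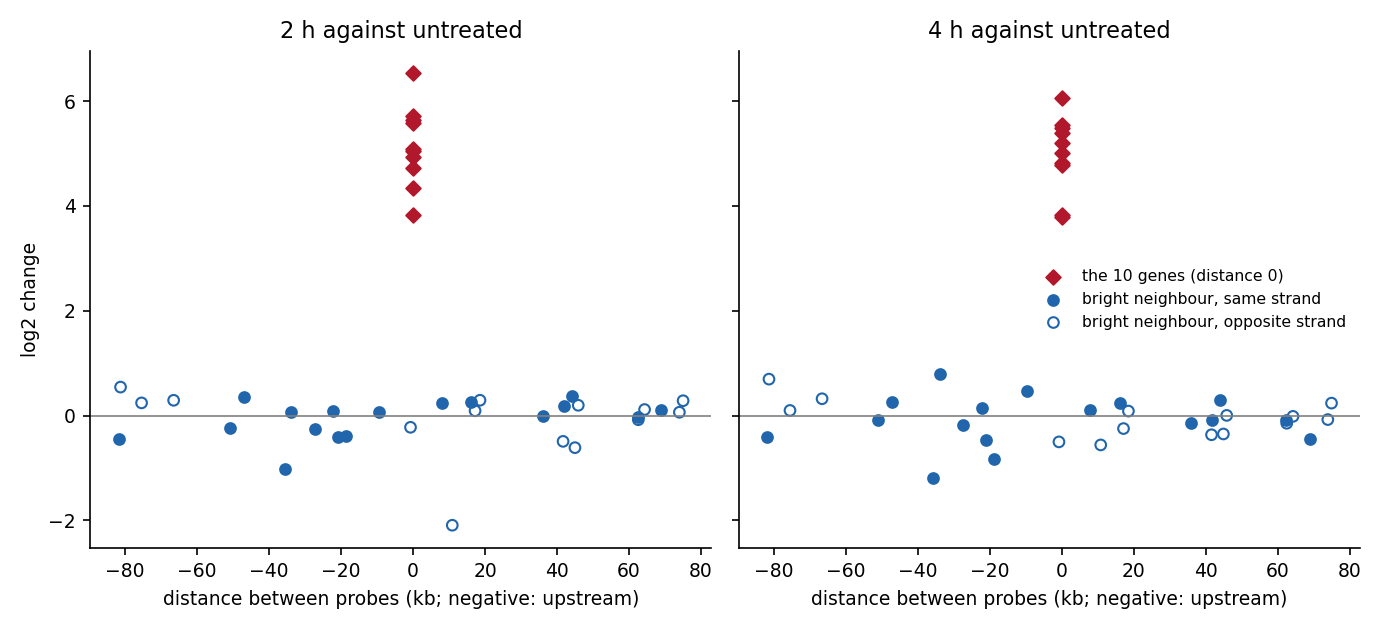
Log2 change at 2 h (left) and 4 h (right) against untreated cells, for the 10 genes (red diamonds at distance 0) and their 31 bright neighbours (circles), by the distance between probes in kb, negative where the neighbour lies upstream of the member. Filled circles are on the member's strand and open ones on the opposite strand. Neighbours lie between -2.09 and 0.79, below every member.

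The members also had 26 dimmer neighbours within 100 kb, of which 18 were bright enough to test. At 2 h 6 of the 18 rose and 3 fell, and at 4 h 7 rose and 2 fell (limma, adjusted p under 0.05). Over all genes tested, 22.7% rose and 14.9% fell at 2 h, and 23.9% rose and 18% fell at 4 h. Cplx3 and Chrna4, not above background on both untreated arrays, entered the test only through treated arrays and are among those that rose at both times. Those named here were chosen after their values were seen. Cplx3, a complexin of synaptic vesicles 5.20 kb downstream of the Lman1l probe on the same strand, read 18.3 and 22.8 in untreated cells, 52.1 and 66.8 at 2 h and 78.4 and 68.9 at 4 h, and was above background on 1 of the 2 untreated arrays. It changed by 1.87 at 2 h and 2.11 at 4 h, and its p-values are not given because it entered the test only through treated arrays. With normexp it changed by 0.77 at 2 h, which did not pass (adjusted p = 0.14, limma), and by 1.32 at 4 h. Bglap, osteocalcin, lay 52.5 kb downstream of Sema4a on the same strand and read 42.9 and 46.2 in untreated cells, 64.7 and 60.9 at 2 h and 99 and 96.1 at 4 h. It changed by 0.83 at 2 h (adjusted p = 0.00376, limma) and 1.39 at 4 h (adjusted p = 0.00111, limma). Both stayed far below the change of the member beside them. Of those that fell, 9130023H24Rik, 37.4 kb upstream of Slc5a2 on the opposite strand, changed by -0.81 at 2 h and -0.68 at 4 h. The adjusted p was 0.00303 and 0.00479 (limma), and its other probe changed by -0.12 and -0.38.

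Relatives of the members were listed by family or pathway, 109 genes in 9 lists, of which 79 were tested by their brightest probe. At 2 h 21 rose, 6 fell and 52 did not pass, and at 4 h 15 rose, 11 fell and 53 did not pass. Slc5a4b, Slc5a5 and Pygm, not well above background in untreated cells, entered the test only through their 2 h arrays. They could hardly come out lower there and are among those that rose at 2 h. The shares over all genes were 22.7% higher and 14.9% lower at 2 h, and 23.9% higher and 18% lower at 4 h. The median change was 0.14 at 2 h and 0.09 at 4 h, beside 0.12 and 0.07 for all genes. Scaling moved these splits to 7 higher and 44 lower at 2 h and to 9 and 31 at 4 h on spike-in spots. With the replicate number as a block, 32 rose and 10 fell at 2 h, and 22 rose and 18 fell at 4 h. Without either untreated or either 2 h array, 6 to 9 rose and 2 or 3 fell at 2 h; at 4 h, 9 rose without untreated replicate 1, and 6 or 7 fell without either untreated array or without 4 h replicate 1.

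Among the sodium-coupled transporters of the Slc5 family, 7 of 12 were tested and 4 rose and 1 fell at 2 h. Slc5a5, the iodide transporter, read 8.44 and 5.97 in untreated cells, 55.5 and 61.4 at 2 h and 32.5 and 33.2 at 4 h. It was not well above background in untreated cells or at 4 h, so a fold is given only for 2 h, when it was at least 4.30-fold higher. Because it entered the test only through its 2 h arrays, its p-value is not given. With normexp its change at 2 h was 1.04 and did not pass (adjusted p = 0.18, limma). Slc5a8, a monocarboxylate transporter, rose by 1.87 at 4 h (SE 0.19, adjusted p = 0.00322, limma) and Slc5a6, a vitamin transporter, changed by -0.64 (adjusted p = 0.00557, limma). Of the starch and disaccharide enzymes, 4 of 8 rose and 0 fell at 2 h (0 also at an unadjusted p), among them Lct, lactase, with 46.8 and 44.8 in untreated cells, 76.1 and 84.8 at 2 h and 132 and 142.1 at 4 h. Lct rose by 1.15 at 2 h and by 1.84 at 4 h (adjusted p = 0.0016 and 0.000644, limma). Pygm, the muscle glycogen phosphorylase, was at least 4.95-fold higher at 2 h and, like Slc5a5, not well above background in untreated cells or at 4 h. Its p-value is left out for the same reason, and with normexp its change at 2 h was 1.065 and did not pass (adjusted p = 0.1728, limma).

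Of the other families, 1 of 11 Ras and Rap exchange factors rose and 2 fell at 2 h, and 1 rose and 5 fell at 4 h. Rasgrp2 rose by 1.10 at 2 h (adjusted p = 0.00913, limma), and Rasgrp1 read below background on both arrays of each treated time. Of 12 genes of AMH and BMP receptor signalling 2 fell at each time and 0 rose (2 at 2 h and 0 at 4 h by an unadjusted p under 0.05), of which Acvr2a, an activin receptor, changed by -0.42 at 2 h (adjusted p = 0.0140, limma). Granzymes and perforin were not detected as a family: 10 of 12 listed genes were not above background in untreated cells, 7 of them on no array, and no granzyme other than Gzmm was bright enough to test. Of class 4 semaphorins and plexins, 2 of 10 rose and 1 fell at 2 h. Plxnb3, a semaphorin receptor, rose by 1.52 (SE 0.09, adjusted p = 0.000708, limma) and Sema4c fell by 0.60 on the log2 scale (SE 0.08, adjusted p = 0.00671, limma). Of 11 lectins and cargo receptors 5 rose at 2 h and 0 fell (1 by an unadjusted p), where 22.7% of all genes tested rose and 14.9% fell. Kdelr2, which returns proteins to the ER, changed by 0.50 (adjusted p = 0.00637, limma). This call passed under 2 of 5 other scalings or background corrections. The rises of Lman2 and Sec24a passed under 1 and those of Mcfd2 and Tmed2 under 0. All of these except Kdelr2 turned negative under spike-in scaling. Of 11 fibril-associated and related collagens 3 rose, with Col9a3 at 1.46 (SE 0.15, adjusted p = 0.00332, limma). Of 7 aspartic proteases 1 rose, Ctsd, the lysosomal cathepsin D, by 0.43 (adjusted p = 0.0365, limma), a call that passed under 0 of 5 other scalings or background corrections and whose direction turned negative under spike-in scaling.

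Markers of the tissues in which the members are best known were read beside them, 60 genes in 5 lists. In untreated cells 22 of the 60 were above background on both arrays, and 26 were tested. A probe entered the test when detected on both arrays of any group, and the shares over all genes rest on the same filter. Slc3a1, Krt5, Klrd1 and Cela3b were not detected on both untreated arrays and entered through treated arrays on which they were high. Such genes could hardly come out lower, and Slc3a1 and Klrd1 are among those that rose at 2 h. At 2 h 10 rose, 0 fell and 16 did not pass, and at 4 h 7 rose and 2 fell (limma), where 22.7% of all genes tested rose and 14.9% fell at 2 h, and 23.9% rose and 18% fell at 4 h. At an unadjusted p under 0.05 also 0 fell at 2 h, whereas 3 fell with no scaling and 5 with spike-in scaling. At 4 h, 0 fell without untreated replicate 1 or 4 h replicate 2, and 1 without 4 h replicate 1. The median change was 0.68 at 2 h and 0.33 at 4 h, beside 0.12 and 0.07 for all genes.

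For the kidney tubule, the tissue of Slc5a2, 6 of 12 markers were above background on no array, among them Slc34a1, Slc22a6, Slc7a9, Kap and Umod. The summed signal of the list was 1324 and 1544 in untreated cells, between 1238 and 1517 at 2 h and between 1346 and 1403 at 4 h. Of the 6 tested, 2 rose and 0 fell at 2 h (0 also at an unadjusted p), and 1 rose and 1 fell at 4 h. The marker that fell was Lrp2, which changed by -0.50 at 4 h (adjusted p = 0.01415, limma) and passed under 4 of 5 other scalings or background corrections. Slc22a12, the brightest of the list, changed by 0.19 at 2 h and 0.12 at 4 h and did not pass. The marker with the widest change was Slc3a1, a subunit of the cystine and amino acid transporter. It read 21.1 and 22.1 in untreated cells, 88.4 and 130 at 2 h and 201 and 214.2 at 4 h. The log2 change was 2.65 at 2 h and 3.52 at 4 h, with 1 of the 2 untreated arrays above background. Because Slc3a1 entered the test only through treated arrays, its p-values are not given. For cytotoxic lymphocytes, the cells of Gzmm, 7 of 12 markers were above background on no array, among them Gzma, Gzmb, Cd8a and Cd3g. Ptprc and Cd3e were above background on both untreated arrays, with signals of 120.2 and 120.4 and of 67.8 and 78.4. Neither passed at 2 h or 4 h. Ptprc and Cd3e together made up most of the list's summed signal in untreated cells. That sum was 261.1 and 265.8 in untreated cells, between 236.3 and 315.5 at 2 h and between 189.7 and 257.3 at 4 h. Of the 3 tested, 1 rose at 2 h and 0 at 4 h (0 also at an unadjusted p under 0.05). It was Klrd1, a receptor subunit of natural killer cells, with signals of 4.32 and 9.86 in untreated cells, 37.4 and 37.7 at 2 h and 6.70 and 25.6 at 4 h. Klrd1 was at least 2.77-fold higher at 2 h, and was not well above background in untreated cells or at 4 h. It entered the test only through its 2 h arrays, so its p-value is not given. The call passed under 3 of 5 other scalings or background corrections. For the epidermis, the tissue of Asprv1, Flg, Ivl, Dsg1a, Dsc3 and Krtdap were above background on no array, and the summed signal was 1566 on each untreated array, 1826 and 1938 at 2 h and 1544 and 1644 at 4 h. Krt10, with 801.8 and 848.9 in untreated cells, made up most of the untreated sum. Krt10 and Krt14 (173.5 and 144 in untreated cells) were above background on all arrays and did not pass at 2 h or 4 h. Lor, loricrin, rose by 1.17 at 2 h and by 0.63 at 4 h (adjusted p = 0.000713 and 0.00325, limma).

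For somatic cells of the gonad, the site of Amhr2, Fshr, Foxl2, Dmrt1 and Cyp19a1 were above background on no array, and 4 of 7 tested markers rose and 0 fell at each time (0 also at an unadjusted p). Star, which moves cholesterol into mitochondria for steroid synthesis, read 38.7 and 41.4 in untreated cells, 265.8 and 224.3 at 2 h and 101.4 and 128.3 at 4 h. It rose by 2.95 at 2 h and by 1.77 at 4 h (adjusted p = 0.000325 and 0.00106, limma). Inhbb, an activin subunit, read 1958 and 1960 in untreated cells, 2856 and 2651 at 2 h and 4660 and 4786 at 4 h, a rise of 0.83 and 1.53 (adjusted p = 0.0029 and 0.000748, limma). The summed signal of this list was 2451 and 2466 in untreated cells, 3691 and 3411 at 2 h and 5315 and 5492 at 4 h, and Inhbb alone made up most of it. For the exocrine pancreas and salivary gland, the tissue of Amy1, Cela2a, Pnlip, Smr3a and Prol1 were above background on no array. Of 5 tested markers 2 rose and 0 fell at 2 h (0 also at an unadjusted p), and 1 rose and 1 fell at 4 h. At 4 h Cel changed by 1.23 (adjusted p = 0.0353, limma) and Cela1 by -0.63 (adjusted p = 0.0297, limma). The rise of Cel passed under 1 of 5 other scalings or background corrections. The fall of Cela1 passed under 4 of 5 and turned to 0.48 with normexp. The summed signal was 323.6 and 328.8 in untreated cells, 433.8 and 408.7 at 2 h and 329.1 and 401.5 at 4 h. What part any of these markers had in the members' rises was not tested.

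**Figure D4:**
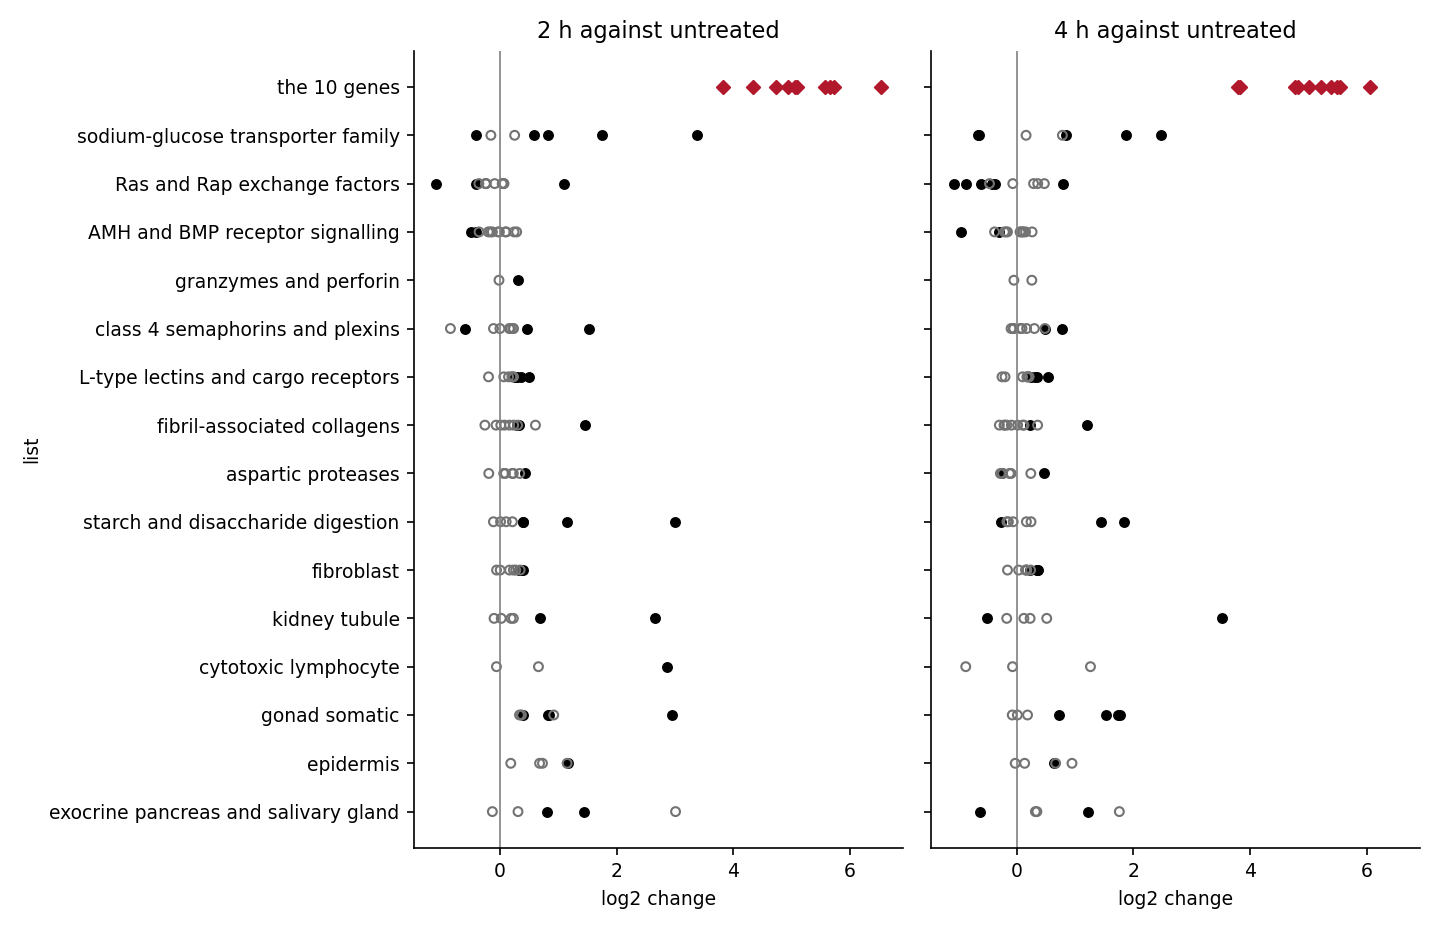
Log2 change against untreated cells at 2 h (left) and 4 h (right), for the 10 genes (red diamonds), the tested genes of 9 lists of relatives, and the tested genes of the fibroblast and 5 tissue marker lists. Filled circles passed limma's test at an adjusted p under 0.05 and open circles did not. The members lie between 3.79 and 6.53, and of the list genes Slc3a1, Slc5a5 and Pygm lie farthest right among those that passed, together with Star and Klrd1.

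Among all other tested probes with a gene symbol, the 5 whose pattern over the 6 arrays lay closest to the members' median pattern were Spata19, Bpifb6, Elapor1, Tmem145 and Il18r1. Likeness was the Euclidean distance between log2 changes from the untreated mean over 6 arrays, and it was 0.506, 0.559, 0.619, 0.700 and 0.809 for these genes. The members' own distances to that pattern ran from 0.493 for Endou to 2.47 for Slc5a2. Spata19, Elapor1, Tmem145 and Il18r1 were not above background on either untreated array and Bpifb6 was on 1 of 2. Bpifb6 read 16.4 and 21.0 in untreated cells, 528 and 418.5 at 2 h and 691.1 and 657 at 4 h. Tmem145 read 212.4 and 295.3 at 2 h and 200 and 199.8 at 4 h, which was at least 18.4-fold and at least 13.9-fold higher than in untreated cells.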

How the data were processed

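RNA of primary mouse embryonic fibroblasts was measured on 6 arrays of 1 colour, 2 for each of 3 groups. Per the labels' protocols, RNA was extracted with Trizol and labelled with Cy3. Per the file headers, the authors used a G2505B scanner, the protocol GE1-v5_95_Feb07 and Feature Extraction 9.5.3.1. Spot intensity, raw and processed, is what the deposited scanner files give, and the deposited value table gives intensity equal to the processed signal within 0.0005. The processed signal is already background-corrected, so weak probes, as the members were in untreated cells, depend most on that correction.

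From the deposited intensity, log2 values minus each array's 75th percentile over 43379 non-control spots were computed here. That percentile was 826.3 and 882.8 in untreated cells, 675 and 677.2 at 2 h and 674.4 and 754.4 at 4 h. Between 57.33% and 67.96% of spots were well above background, 0 were saturated, and 99 to 149 with an outlier flag per array were left out. Probes were named through accessions in a RefSeq gene table (22951 probes), a current symbol (6659), an older symbol (3109) or the name in the file (8455). Endou was reached through its accession and Asprv1 through an older symbol, and for the other 8 members the name in the file was already the member's own. Tests used 25875 probes, each detected well above background on both replicates of some group. A single limma fit (version 3.58.1, R 4.3.3) covered the 6 arrays, with 3 residual and 1.69 prior degrees of freedom. The Benjamini-Hochberg adjustment ran over all probes at a threshold of 0.05. The brightest probe counted for each of 17185 genes. The steps were tested on simulated data with known changes. With so few arrays, their number limits the precision.

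The members and lists were chosen with earlier results of these data known. The text names every probe of the members, the nearest bright neighbours, up to 3 genes of a list past the test with the widest change and up to 2 of its brightest, and the 5 genes nearest the members' median pattern. From the lists it prints a subset. Alternatives were quantile normalization, median centring, no scaling, scaling on 7 spike-in probes, normexp with an offset of 50, other filters on dim probes, the mean of a gene's probes, each array left out, a 50 kb window, neighbours at 4 times the 75th percentile, and the replicate number, which is the slide, as a block. The samples of 1 number deviated together, with correlations of 0.215, 0.190 and 0.210 between the pairs of groups. Promoter windows come from RefSeq on GRCm38.p6. Python 3.11.15 with pandas 2.3.3 drew up the tables.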

Additional observations from a re-analysis of the deposited data

Results flagged for a closer look

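Between the treated times the levels of 6 members and of 2 further probes differed, all in limma over 6 arrays and at an adjusted p under 0.05. The members were chosen for rises on these same treated arrays, so a gene could enter through 1 time. By rise, Col20a1 ranked 22 at 2 h and 3 at 4 h, and Sema4a 7 and 22. The differences are thus not independent of the choice. Array position went with time and no untreated cells were taken at 2 h or 4 h, so an effect of H2O2 cannot be told apart. The log2 difference of 4 h minus 2 h was 1.66 for Col20a1 and 0.61 for Lman1l. It was -1.26 for Sema4a, -0.90 for Asprv1, -0.71 for the brightest probe of Rasgef1a and -0.44 for Amhr2. The other Rasgef1a probe differed by 0.76 and the other Amy1 probe by 0.55. Both slides gave the same sign in each of these.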

How the results depend on the processing

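Scaling moved the median change of all probes at 2 h and 4 h, which was 0.10 and 0.06 as reported, to -0.35 and -0.20 on spike-in spots, -0.23 and -0.20 with no scaling, -0.09 and -0.10 with median centring, 0.00 and -0.02 with quantile normalization and 0.13 and 0.22 with normexp, so small changes are relative to this shift. No member's change against untreated cells turned direction. The difference of 4 h minus 2 h turned to 0.0274 for Rasgef1a with the mean of its probes and to 0.0126 for Gzmm on spike-in spots; the mean combines probes that moved apart, and the cause for Gzmm was not tested. Members higher at 4 h than 2 h (2 as reported) were 1 with normexp, 3 with quantile normalization, on spike-in spots, with only probes above background on all arrays or with the mean of probes, and 1 to 3 with 1 array left out. Members lower (4) were 2 with normexp or no filter on dim probes and 2 to 5 with 1 array left out. Bright neighbours higher at 2 h (5) were 1 with quantile normalization or no filter, 0 with median centring, no scaling, spike-in scaling or normexp, 3 within 50 kb, 8 with the replicate block and 0 to 4 with 1 array left out; lower (7), they were 11 with no scaling, 21 on spike-in spots, 2 with normexp, 2 among neighbours at 4 times the 75th percentile and 3 to 7 with 1 array left out. At 4 h, higher (6), they were 3 with quantile normalization, 2 with median centring, no scaling, spike-in scaling or no filter, 0 with normexp and 2 to 4 with 1 array left out; lower (10), they were 3 with normexp, 4 with no filter, 3 among neighbours at 4 times the 75th percentile and 4 to 7 with 1 array left out. Relatives higher at 2 h (21) were 13 with quantile normalization, 9 with median centring, 7 with no scaling or spike-in scaling, 2 with normexp, 8 with no filter, 32 with the replicate block and 6 to 17 with 1 array left out; lower (6), they were 9 with quantile normalization, 14 with median centring, 22 with no scaling, 44 on spike-in spots, 0 with normexp, 3 with no filter, 10 with the replicate block and 2 to 6 with 1 array left out. At 4 h, relatives higher (15) were 10 with median centring, 8 with no scaling, 9 on spike-in spots, 3 with normexp, 22 with the replicate block and 9 to 13 with 1 array left out; lower (11), they were 18 with median centring, 26 with no scaling, 31 on spike-in spots, 0 with normexp, 6 with no filter, 18 with the replicate block and 6 to 9 with 1 array left out. Tissue markers higher at 2 h (10) were 5 with normexp and 7 to 10 with 1 array left out; lower (0), they were 3 with no scaling, 5 on spike-in spots and 1 with the mean of probes. At 4 h, tissue markers higher (7) were 4 with no scaling and 5 to 8 with 1 array left out; lower (2), they were 4 on spike-in spots, 0 with normexp or no filter and 0 to 3 with 1 array left out. Members with a bright upstream gene (8) were 3 with neighbours at 4 times the 75th percentile. The replicate block made Slc5a2 pass between the treated times and changed no other member's call. Signal near background in untreated cells limits the size of the members' changes, and with 2 arrays a group the number of arrays limits the calls.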

Other observations

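The position of bright genes was also read for all dim genes, with no test and chosen after the members' neighbours had been seen. These were 3270 genes at or below the members' highest untreated log2 level of -3.12 and above background on both untreated arrays. Of the 965 with a bright gene upstream on the same strand within 100 kb, 36.1% rose at 2 h and 35.3% at 4 h (limma, adjusted p under 0.05). Of the 2305 without one, 16.3% rose at 2 h and 15.5% at 4 h. Among dim genes whose only kind of bright neighbour was upstream on the same strand, 77 of 239 rose at 2 h (32.2%) and 79 at 4 h (33.1%). Where the only kind was upstream on the opposite strand, 25.3% of 170 rose at 2 h and 17.1% at 4 h. The shares were 12.9% and 17.2% of 309 genes for downstream on the same strand, 15.5% and 15.9% of 277 for downstream on the opposite strand, and 14.6% and 13.2% of 1159 genes with no bright neighbour, at 2 h and 4 h in turn. Neighbouring genes share probes' genomic surroundings and are not independent of each other.

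The Amy1 probes lay 0.06 kb apart and gave differences between the treated times of 0.49 and 0.55. The Lman1l probes lay 6.80 kb apart and gave 0.61 and 0.55. The Rasgef1a probes, 1.04 kb apart, were the only pair of the 3 members with more than 1 probe that moved in opposite directions.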
